A study of Homo sapiens with 3 samples.

Results

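The 61 tRNA genes described here carry leucine (29 genes), serine (28 genes) and selenocysteine (SeC, 3 genes) or are named as a suppressor tRNA (Sup, 1 gene). They are all the genes so named among the 434 tRNA genes with reads in a DDX6 eCLIP experiment, and none of them has the nmt- prefix of nuclear-encoded mitochondrial look-alikes. The rule for members uses gene names and no measured value. They spell 12 combinations of amino acid and anticodon, and the other 373 tRNA genes serve for comparison.

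A tRNA reads a codon with its anticodon and delivers the matching amino acid to the ribosome. Leucine, serine and selenocysteine tRNAs share a long, often base-paired variable arm, which most other tRNAs lack, and seryl-tRNA synthetase uses that arm as a recognition element. The selenocysteine tRNA is first charged with serine, then converted on the tRNA, and reads the stop codon UGA in mRNAs of selenoproteins, many of which are redox enzymes. A suppressor tRNA is one whose anticodon pairs with a stop codon, and TTA pairs with UAA. The suppressor gene is grouped here by its name and its arm was not examined.

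The cells were MOLM-13, a human acute myeloid leukaemia line grown in RPMI medium with 20% fetal bovine serum. In eCLIP, ultraviolet light links RNA to the proteins it touches, RNase I shortens the RNA, and an antibody pulls down one protein with its fragments for sequencing. DDX6, a helicase of P-bodies that represses translation and promotes decapping, was recovered with a Novus antibody in 2 immunoprecipitation (IP) libraries, replicates 1 and 2. The reference was 1 input library from the same line, with no antibody. The labels give no alteration of the line, and no IP from cells lacking DDX6 or with an unrelated antibody was analysed here. The labels do not name the cultures behind the replicates, so p-values reflect only how far these libraries differ, which may be technical.

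The tables held 4643494 counted reads in IP replicate 1, 1244213 in IP replicate 2 and 7807540 in the input. tRNA genes took 119104, 64406 and 93013 of them, or 2.56%, 5.18% and 1.19%. The IP replicates thus stood apart in their tRNA share, which was highest in IP replicate 2. Exonic reads took 67.6%, 62.6% and 30.7%, so any scale that includes intronic reads raises exonic and tRNA reads of the IP. All 8 myeloid markers had input reads (122 to 1875 each), while 3 of 10 markers of other cell types did (0 to 27 each). The members' values below are therefore given first as a share of all tRNA reads in the same library, a scale on which a rise of one tRNA lowers the others. Reads count recovered fragments, so more tRNA molecules and more fragments per molecule cannot be told apart. The intervals and the read floor used below take in counting error only.

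The members together held a smaller share of tRNA reads in both IP libraries than in the input, and their 4 kinds did not move as a block. They had 13332 reads (11.2% of tRNA reads) in IP replicate 1 and 10442 (16.2%) in IP replicate 2, against 20453 (21.99%) in the input. The IP share was 13.7% ± 3.55 (SD, n = 2), and both IP libraries lay below the input. Per counted read the members lay above the input instead, at 1.10 and 3.20 times its value in IP replicates 1 and 2. The direction thus depends on the scale. Exact Clopper-Pearson intervals (95%) were 11.02% to 11.4%, 15.9% to 16.5% and 21.7% to 22.3% for IP replicate 1, IP replicate 2 and input. With 2 IP libraries and 1 input no permutation test of this share can reach 0.05, and none is given.

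Leucine tRNAs had a lower share in both IP libraries. They had 5.77% and 6.70% of tRNA reads in IP replicates 1 and 2, against 17.2% in the input, which is 0.335 and 0.389 times the input share. Serine tRNAs had 3.96% and 8.35% in the IP replicates, against 4.73% in the input. The input value for serine lay between the IP values, so no direction can be given for serine as a whole on this scale. Selenocysteine tRNAs had 1.28% and 0.857% in the IP replicates, against 0.0215% in the input, or 59.4 and 39.9 times the input share. The ratio of leucine to serine reads was 1.46 and 0.803 in the IP replicates, against 3.65 in the input, so leucine reads led in IP replicate 1 and in the input and serine reads led in IP replicate 2.

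**Figure D1:**
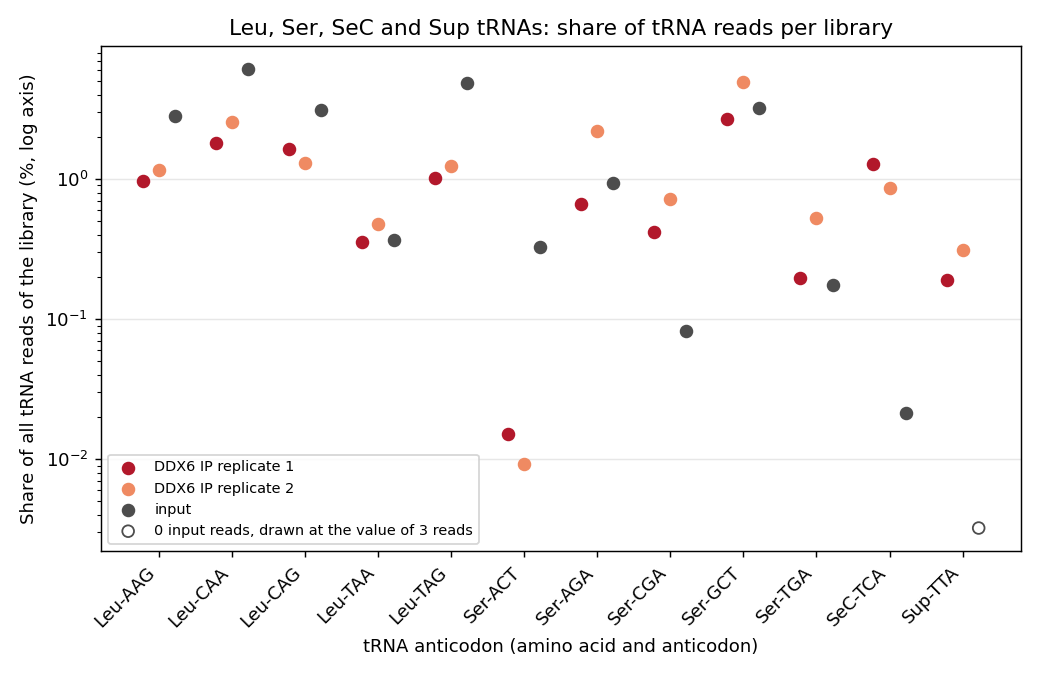
Share of all tRNA reads (%, log axis) for each of the 12 anticodons in both IP replicates and the input, 1 point per library. SeC-TCA, Sup-TTA and Ser-CGA lie higher in both IP libraries than in the input, Ser-ACT and 4 of the 5 leucine anticodons lie lower, and the open circle marks the value of 3 reads for Sup-TTA, which had 0 input reads.

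Counts summed by anticodon were tested relative to all tRNA reads, over the 49 tRNA anticodons with enough reads (at least 10 in at least 2 libraries). With edgeR's quasi-likelihood test and a Benjamini-Hochberg adjusted p under 0.05, 3 of the 12 anticodons of the members were higher in the IP and 5 were lower. Sup-TTA is among the 3 and, with 0 input reads, passed the read filter through the IP libraries alone, so it could only be called higher. Over all 49 tested anticodons 18.4% were higher and 32.7% lower, and among the 37 of other amino acids 6 were higher and 11 lower. The members' shares of calls were thus close to those of tRNAs at large. The p-values of this test use a spread pooled over the 49 anticodons, not that of each anticodon alone. The median log2 fold of the 12 was 0.21. Among the anticodons with input reads, ordered by log2 fold, SeC-TCA came first, Lys-TTT and Ser-CGA next, and Ser-ACT last, while Sup-TTA had 0 input reads and has no measured place.

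**Figure D2:**
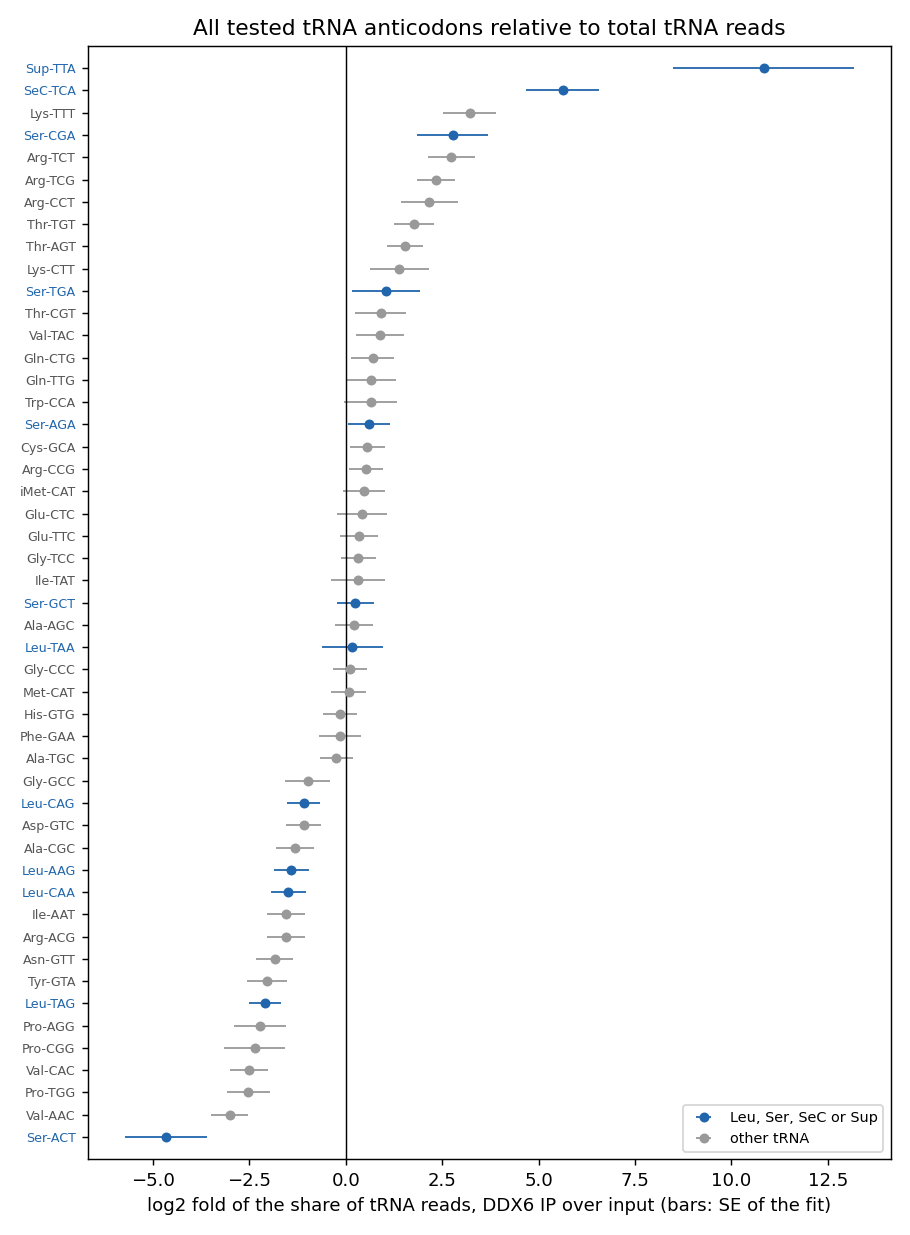
Log2 fold of the share of tRNA reads, DDX6 IP over input, for all 49 tested tRNA anticodons. Bars are standard errors derived from the F statistic of the test, and Leu, Ser, SeC and Sup are in blue. The members occupy both ends of the order, and the point of Sup-TTA rests on 0 input reads, so its position depends on the prior count and is no measured size.

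The selenocysteine tRNA showed the highest ratio to input among the members' anticodons with input reads. SeC-TCA, which reads UGA at selenocysteine codons, had 1520 and 552 reads in IP replicates 1 and 2, against 20 in the input. Both IP libraries were far above the input, which had fewer tRNA reads than IP replicate 1 and more than IP replicate 2. Relative to tRNA reads the log2 fold was 5.62 (SE 0.94), with an edgeR Benjamini-Hochberg adjusted p of 6.06e-06. The exact 95% interval of the input share was 0.0131% to 0.0332%, below both IP intervals, whose lowest bound was 0.787%. Almost all of these reads belonged to 1 gene: tRNA-SeC-TCA-1-1 had 1516 and 551 reads in the IP replicates, against 19 in the input. The other copies were almost empty, with 4 and 1 IP reads against 0 in the input for tRNA-SeC-TCA-2-1, and 0 IP reads against 1 in the input for tRNA-SeC-TCA-3-1.

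The suppressor tRNA gene was seen in the IP alone. tRNA-Sup-TTA-1-1, whose anticodon pairs with the stop codon UAA, had 225 and 199 reads in the IP replicates, against 0 in the input. A count of 0 among 93013 tRNA reads allows an input share of up to 0.00323% when set at 3 reads, and the exact 95% interval reached 0.00397%. Against the floor of 3 reads IP replicate 1 had a 58.6-fold higher share of tRNA reads and IP replicate 2 a 95.8-fold higher one. The exact limit lies above that floor, so folds set against it would be smaller. The anticodon was called higher relative to tRNA reads (edgeR, Benjamini-Hochberg adjusted p = 0.000198). With 0 input reads it passed the read filter through the 2 IP libraries alone. A call could therefore only be higher, and it adds no support to the counts.

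Leucine anticodons fell together, with 1 exception. Relative to tRNA reads Leu-TAG, Leu-CAA, Leu-AAG and Leu-CAG were lower in the IP and Leu-TAA was not called. Leu-TAG had 1.02% and 1.23% of tRNA reads in IP replicates 1 and 2, against 4.83% in the input, a log2 fold of -2.10 (SE 0.42, edgeR Benjamini-Hochberg adjusted p = 8.47e-05). Leu-CAA, which reads the UUG codon, had 1.80% and 2.54% in the IP replicates, against 6.11% in the input. Its log2 fold was -1.49 (edgeR Benjamini-Hochberg adjusted p = 0.00602). In all 4 lower anticodons both IP libraries lay below the input, and the IP replicates lay closer to each other than either did to the input.

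Leu-AAG, whose first anticodon base is edited to inosine in the mature tRNA, had 0.964% and 1.15% in the IP replicates, against 2.81% in the input, with a log2 fold of -1.41 (edgeR Benjamini-Hochberg adjusted p = 0.00798). Leu-CAG, which reads the CUG codon, had 1.63% and 1.30%, against 3.11% in the input, and its log2 fold was -1.09 (edgeR Benjamini-Hochberg adjusted p = 0.0287). Leu-TAA had 0.353% and 0.474% in the IP replicates, against 0.367% in the input, so the input value lay between those of the IP. Its log2 fold was 0.17 with an edgeR Benjamini-Hochberg adjusted p of 0.847.

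Serine anticodons went in different directions. Ser-CGA, which reads UCG, had 0.417% and 0.717% of tRNA reads in the IP replicates, against 0.0828% in the input, or 497 and 462 reads against 77. Its log2 fold relative to tRNA reads was 2.77 (SE 0.92, edgeR Benjamini-Hochberg adjusted p = 0.0101). Ser-ACT, a single gene whose anticodon pairs with AGU, had 18 and 6 reads in the IP replicates, against 304 in the input. The IP shares were 0.0151% and 0.00932%, against 0.327% in the input, with both IP libraries far below it. The log2 fold was -4.67 (SE 1.06, edgeR Benjamini-Hochberg adjusted p = 0.000289).

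The remaining serine anticodons were not called relative to tRNA reads, and in each of them IP replicate 2 was the highest library. Ser-GCT, the serine anticodon with most reads, had 2.67% and 4.91% in the IP replicates, against 3.21% in the input. Ser-AGA, another target of inosine editing, had 0.659% and 2.19%, against 0.935% in the input. For both, the input lay between the IP replicates. Ser-TGA had 0.198% and 0.523% in the IP replicates, against 0.174% in the input, with both IP values above the input but an edgeR Benjamini-Hochberg adjusted p of 0.368. Their log2 folds were 0.24, 0.60 and 1.04 in that order.

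When the same anticodon sums were tested among all exonic genes, with TMM scaling, 4 of the 12 anticodons were higher and 2 lower by edgeR with a Benjamini-Hochberg adjusted p under 0.05. Over all 10441 rows of that fit 14.0% were higher and 11.4% lower, and of the 37 other tRNA anticodons 11 were higher and 8 lower. SeC-TCA had a log2 fold of 5.94 (SE 0.45, adjusted p = 3.56e-08), Ser-CGA 3.30 (SE 0.54, adjusted p = 0.000172) and Ser-TGA 1.62 (SE 0.57, adjusted p = 0.0416). Sup-TTA was also called higher, at an adjusted p of 4.59e-06, though with 0 input reads the read filter left it no other direction. Ser-ACT had a log2 fold of -4.54 (SE 0.34, adjusted p = 3.56e-08) and Leu-TAG -1.63 (SE 0.44, adjusted p = 0.00928). Leu-TAG, Ser-CGA and Ser-TGA lost their calls with DESeq2, at adjusted p of 0.412, 0.109 and 0.609. With at least 30 reads required, Leu-TAG had an adjusted p of 0.0551 and Ser-TGA of 0.197, and Leu-TAG also lost its call with library size alone (0.424) and with intronic rows added (0.154). Ser-TGA rested on IP replicate 2, since its CPM was 69.0 and 398 in IP replicates 1 and 2, against 71.5 in the input, and its log2 fold was 0.011 without IP replicate 2. Without IP replicate 1 and without IP replicate 2, Ser-CGA had log2 folds of 3.9996 and 2.16 and Leu-TAG of -1.09 and -2.42.

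Summed by amino acid, SeC and Sup were higher and neither Leu nor Ser was called, by edgeR with Benjamini-Hochberg adjustment over 10415 rows, of which 14.6% were higher and 11.9% lower. Sup had 0 input reads and could only be called higher. Leu had a log2 fold of -0.996 (SE 0.53, adjusted p = 0.169) and Ser of 0.99 (SE 0.61, adjusted p = 0.237). Both values depend on the library and on the scale. Without IP replicate 1 Leu stood at -0.47 and Ser at 1.71, and without IP replicate 2 at -1.76 and -0.43, so Ser changed sign. Scaling to all counted reads moved the median of all rows of the anticodon fit to 1.24 (log2), against -0.06 with TMM. On that scale Leu stood at 0.27 and was not called (edgeR Benjamini-Hochberg adjusted p = 0.630). Its IP replicates lay on either side of the input, at 0.720 and 1.69 times the input's reads per counted read. Ser stood at 2.24 and was called higher (edgeR Benjamini-Hochberg adjusted p = 9.10e-05), with IP replicates at 1.80 and 7.67 times the input. Of all 10415 rows 6989 were called higher on that scale.

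Gene by gene, 44 of the 61 members had enough reads for a test and 17 did not. Of the 61, 13 had under 10 reads in every library and 9 had no input reads. Among the 17 were also genes with more reads in the input than in either IP library. Examples are tRNA-Ser-AGA-2-3 (9 and 9 IP reads, against 95) and tRNA-Leu-AAG-1-3 (9 and 5, against 31). By contrast tRNA-Sup-TTA-1-1, with 0 input reads, was tested. Among all exonic genes and tRNA genes together, edgeR with Benjamini-Hochberg adjustment called 0 members higher and 0 lower, and it called 0 of 10700 rows in either direction (0.0% higher and 0.0% lower). The smallest adjusted p was 0.0805. At an unadjusted p under 0.05, 6 members were higher and 6 lower (1668 and 1497 of all rows), and DESeq2 called 6 members higher and 3 lower. Of all rows with an adjusted p, DESeq2 called 5.14% higher and 2.1% lower, and of the 264 other tRNA genes it called 57 and 46. The prior degrees of freedom of this fit were 3.001, against 19.8 when tRNA genes were summed by anticodon.

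A fit of tRNA genes alone, scaled to tRNA reads and chosen after seeing the data, called 6 members higher and 17 lower of 44 (edgeR, Benjamini-Hochberg adjusted p under 0.05). Of all 308 tRNA genes in it, 20.5% were higher and 32.1% lower, and of the 264 other tRNA genes 57 were higher and 82 lower. The 6 higher members were tRNA-SeC-TCA-1-1, tRNA-Sup-TTA-1-1, tRNA-Ser-CGA-4-1, tRNA-Ser-AGA-1-1, tRNA-Ser-AGA-2-6 and tRNA-Ser-GCT-3-1, with no leucine gene among them. The 17 lower ones were 11 leucine and 6 serine genes. Of the 43 tested members with more than 3 input reads, 15 had a higher share of tRNA reads than the input in both IP libraries, 22 had a lower share in both and 6 were split. Leucine genes divided into 4 higher, 14 lower and 1 split, and serine genes into 10, 8 and 5. In 38 of the 43 the share was higher in IP replicate 2 than in IP replicate 1. With 1 input library, the read filter can pass a gene low in the input but none low in both IP libraries. Of the 6 higher members, tRNA-Sup-TTA-1-1 and tRNA-Ser-CGA-4-1 passed it through the IP libraries alone, with 0 and 9 input reads. Left out was tRNA-Ser-AGA-2-3, for example, with share ratios of 0.0740 and 0.137. The counts of higher and lower genes are thus tilted towards genes high in the IP.

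Within an anticodon the gene copies differed widely. tRNA-Ser-CGA-4-1 had 410 and 337 reads in IP replicates 1 and 2, against 9 in the input, or 35.6 and 54.1 times the input share of tRNA reads. It held 82.5% and 72.9% of the Ser-CGA reads in the IP replicates, against 11.7% in the input. By contrast tRNA-Ser-CGA-3-1 had 43 and 40 IP reads, against 45 in the input, and its share ratios of 0.746 and 1.28 lay on either side of 1. Ser-CGA reads of the IP thus lay mostly on 1 gene.

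Serine AGA copies spanned the widest range. tRNA-Ser-AGA-1-1 had 182 and 210 reads in the IP replicates, against 12 in the input, with share ratios of 11.8 and 25.3. tRNA-Ser-AGA-2-6 had 172 and 346 reads, against 15 in the input, with share ratios of 8.95 and 33.3. tRNA-Ser-AGA-2-5 had 84 and 87 reads, against 353 in the input, with share ratios of 0.186 and 0.356. Copies 2-5 and 2-6 carry the same isodecoder number, which in the tRNA gene naming scheme stands for the same mature sequence. Reads inside such copies cannot be told apart by sequence, and how reads with several matches were placed is not given in the sources used here, so values of single copies are uncertain.

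The same was seen for leucine CAG. tRNA-Leu-CAG-1-6 had 1374 and 440 reads in the IP replicates, against 441 in the input, with share ratios of 2.43 and 1.44. tRNA-Leu-CAG-1-7, with the same isodecoder number, had 100 and 90 reads, against 828 in the input, and share ratios of 0.0943 and 0.157. The first of these was therefore above the input in both IP libraries and the second below it in both. Summed over the isodecoder the reads were 1474 and 530, against 1269 in the input. tRNA-Leu-CAA-1-1 had 399 and 272 IP reads, against 3367 in the input, while its partner tRNA-Leu-CAA-1-2 had 702 and 447, against 1676. tRNA-Leu-CAA-1-1 held 18.6% and 16.6% of the Leu-CAA reads in the IP replicates, against 59.2% in the input.

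Some leucine genes stood above the input in both IP libraries. tRNA-Leu-CAA-4-1 had 909 and 801 reads in the IP replicates, against 363 in the input, with share ratios of 1.96 and 3.19. tRNA-Leu-TAA-1-1 had 314 and 229 reads, against 123 in the input, and share ratios of 1.99 and 2.69. Neither passed the test among tRNA genes (edgeR Benjamini-Hochberg adjusted p of 0.0927 and 0.0728). At the low end tRNA-Leu-TAG-3-1, the member with most reads over the 3 libraries, had 777 and 496 reads in the IP replicates, against 3135 in the input, and tRNA-Leu-TAG-1-1 had 195 and 109, against 996.

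Serine GCT was divided in the same way. tRNA-Ser-GCT-3-1 had 1005 and 1075 reads in the IP replicates, against 240 in the input, with share ratios of 3.27 and 6.47. tRNA-Ser-GCT-6-1 had 1251 and 1296 reads, against 827 in the input, with share ratios of 1.18 and 2.26. tRNA-Ser-GCT-4-1 had 42 and 25 reads, against 297 in the input, with share ratios of 0.110 and 0.122. Genes 3-1 and 6-1 were above the input in both IP libraries and 4-1 below it in both, while the anticodon as a whole was not called.

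**Figure D3:**
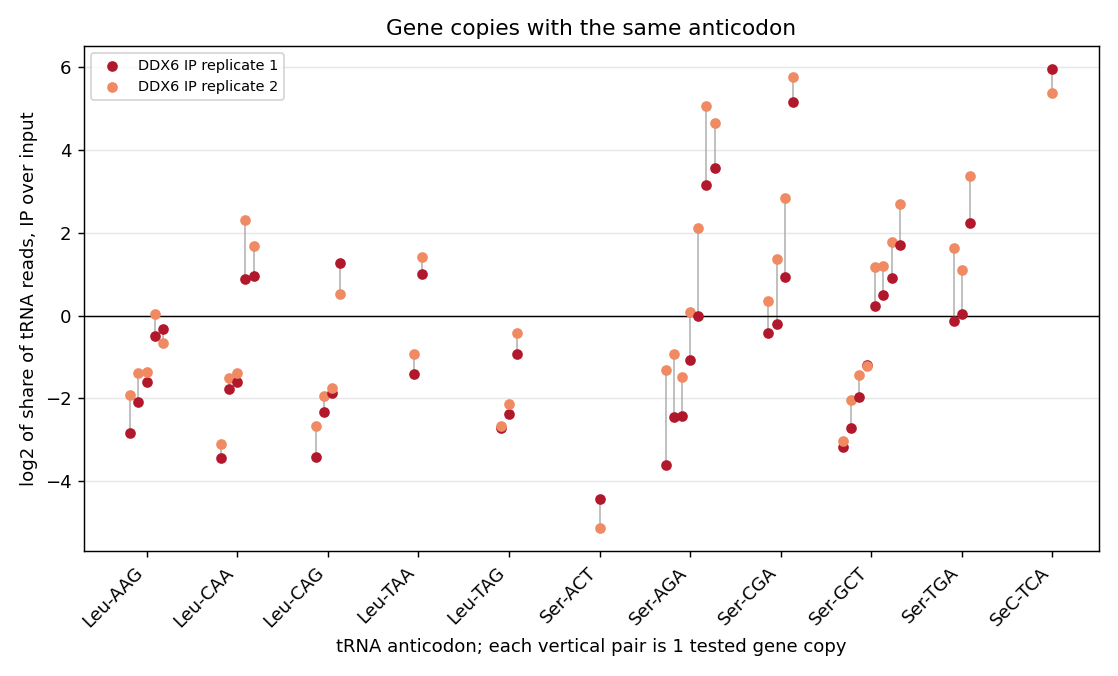
Log2 ratio of the share of tRNA reads, IP over input, for each tested gene copy with input reads, grouped by anticodon, with a line joining IP replicate 1 and IP replicate 2. Copies of Leu-CAA, Leu-CAG, Leu-TAA, Ser-AGA and Ser-GCT lie on both sides of 0, and in most pairs IP replicate 2 is the upper point.

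The authors' peak lists, made from the same libraries, give the stretches that the authors listed as peaks. Each IP library has its own list with a -log10 p and a log2 fold against the input for every peak, both the authors' values, and a peak is called significant here when each is at least 3. Peaks annotated to tRNAs numbered 133 in IP replicate 1 and 117 in IP replicate 2, on 61 and 56 tRNA genes, of which 5 and 4 were members. Significant peaks lay on 15 and 25 tRNA genes, and in both lists the same 3 members were among them: SeC-TCA-1-1, Sup-TTA-1-1 and Ser-GCT-3-1. No peak was annotated to a leucine tRNA in either list. A lack of peaks does not mean a lack of reads. tRNA-Leu-CAA-4-1 had 909 and 801 IP reads and no peak, while tRNA-Ser-GCT-4-1 had 42 and 25 and 1 peak in each list. Every member with a peak also overlaps another annotated gene. What decides whether a tRNA gene is listed was not tested.

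tRNA-SeC-TCA-1-1 was covered by 5 peaks in IP replicate 1 and 4 in IP replicate 2, which together ran over chr19:45981853-45981947 on the minus strand (hg19) in both lists. Their log2 folds were 6.23 to 6.64 in IP replicate 1 and 7.15 to 7.64 in IP replicate 2, with every -log10 p at 400, the largest value in the lists. The tRNA covered 88 of those 95 bases. The same stretch is also annotated to an intron and a 5' splice site region of ERCC1, a DNA repair gene, whose intronic reads numbered 43 and 15 in the IP replicates, against 133 in the input. The tRNA reads outnumbered them in both IP libraries and not in the input.

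tRNA-Sup-TTA-1-1 had 4 peaks in each list over chr17:58863592-58863666 on the plus strand (hg19). The log2 folds were 6.74 to 7.24 in IP replicate 1 and 7.999 to 10.3 in IP replicate 2. In both lists the 3' part of the gene had the larger values. The tRNA covered 73 of the 75 bases, and the stretch lies in an intron of BCAS3, whose intronic reads numbered 436 and 122 in the IP replicates, against 2002 in the input.

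tRNA-Ser-GCT-3-1 had 1 significant peak of 4 in IP replicate 1, over chr11:66115622-66115682, and 5 of 5 in IP replicate 2, over chr11:66115626-66115681, on the plus strand (hg19). The log2 folds were 2.27 to 3.17 in IP replicate 1 and 3.51 to 5.27 in IP replicate 2. In both lists the largest fold lay inside chr11:66115638-66115648. The gene overlaps B4GAT1-DT, a divergent transcript, which had 2 and 0 intronic reads in the IP replicates, against 10 in the input. Of the other members with peaks, tRNA-SeC-TCA-2-1 had 1 peak in IP replicate 1 with a -log10 p of 1.35, and tRNA-Ser-GCT-4-1 had 1 in each list with log2 folds of -2.11 and -0.93.

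**Figure D4:**
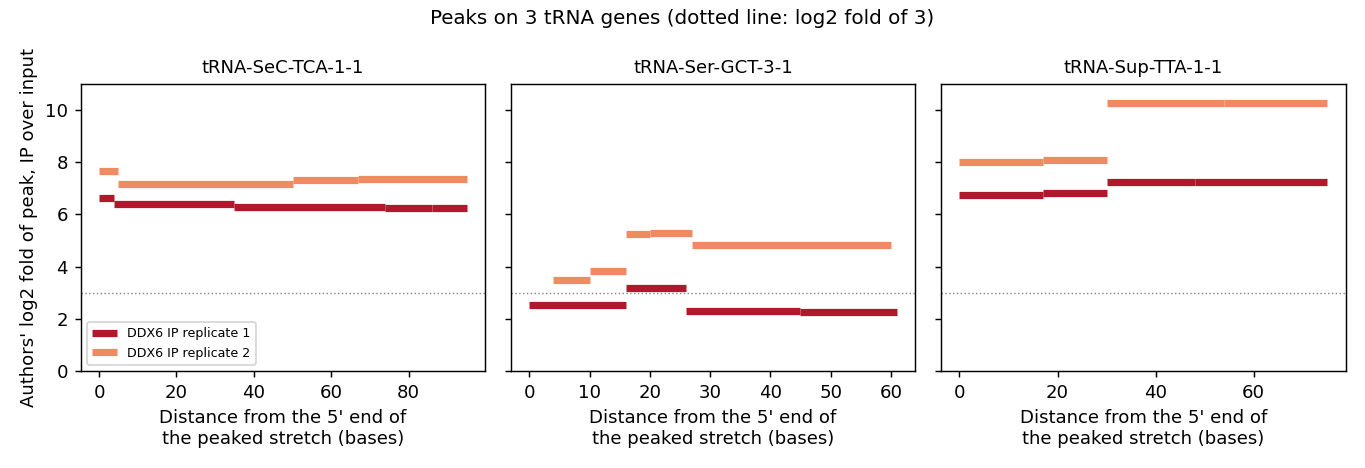
Authors' log2 fold of each peak, IP over input, along the peaked stretch of 3 tRNA genes, in bases from its 5' end, for IP replicate 1 and IP replicate 2. The peaks of IP replicate 2 lie higher on all 3 genes, and the dotted line marks the log2 fold of 3.

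The authors' deposited list of 1587 reproducible peaks held 4 peaks on each of these 3 tRNA genes. It held none on tRNA-SeC-TCA-2-1 and tRNA-Ser-GCT-4-1, the other members with a peak in an IP list. Members without such a peak were not looked up in it. Their log2 folds in that list were 6.85 to 7.14 for tRNA-SeC-TCA-1-1, 7.37 to 8.76 for tRNA-Sup-TTA-1-1 and 3.18 to 4.24 for tRNA-Ser-GCT-3-1.

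Messenger RNAs of proteins that charge, modify, cut, export or transcribe these tRNAs were followed beside them, as 40 listed genes, of which 39 had exonic reads and 38 could be tested. In the fit with single tRNA genes, edgeR with Benjamini-Hochberg adjustment called 0 higher and 0 lower. At an unadjusted p under 0.05, 5 were higher and 3 lower, beside 1668 and 1497 of all 10700 rows. DESeq2 called 0 higher and 1 lower, beside 5.14% and 2.1% of all rows with an adjusted p. In the fit with tRNAs summed by anticodon, added after seeing the data, 5 were higher and 3 lower, beside 14.0% and 11.4% of all rows, and the median log2 fold of the list was 0.08.

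The 8 genes called there are named after their values were seen. SLFN11, an interferon-induced protein known to act against tRNAs with a long variable arm, had 811 and 180 exonic reads in the IP replicates, against 234 in the input, with a log2 fold of 1.13 (edgeR Benjamini-Hochberg adjusted p = 0.00294). GTF3C1 and POLR3B, of the RNA polymerase III machinery that transcribes tRNA genes, had log2 folds of 1.17 and 1.21. NAT10, which acetylates cytidine in serine and leucine tRNAs, had 0.80, and CLP1, an RNA kinase associated with tRNA splicing, had 1.16. ADAT2, the catalytic subunit of the enzyme that makes inosine in anticodons such as AAG and AGA, had 104 and 18 reads in the IP replicates, against 228 in the input. Its log2 fold was -1.88 (edgeR Benjamini-Hochberg adjusted p = 0.000112). BRF1, another polymerase III factor, had -1.07 and TSEN15, a subunit of the tRNA splicing endonuclease, -1.16, and both were above 0 when scaled to all counted reads. With DESeq2 only SLFN11 and ADAT2 of these 8 kept their calls, at adjusted p of 0.0369 and 0.0111, and the others had 0.141 to 0.297. With library size alone ADAT2 stood at -0.58 (edgeR Benjamini-Hochberg adjusted p = 0.109). The leucine and serine synthetases LARS1 and SARS1 had log2 folds of 0.35 and 0.69, and SEPSECS, which makes selenocysteine on its tRNA, 0.18, none of them past the threshold.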

How the data were processed

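DDX6 eCLIP of MOLM-13 cells gave 2 IP libraries and 1 input. The genome build was hg19 and the tools named were STAR, cutadapt, SAMtools and UMI-tools, per the submitters' processing notes. Not given in the sources used here are their versions, the counter, the annotation, and how strand and reads with several matches were treated. Raw counts were deposited by the authors per gene and region. The tRNA column was used for tRNA genes. The authors' deposited peak lists give a -log10 p and a log2 fold per peak, per the values in them. The line of totals and the intergenic line (4.05% and 3.78% of reads in IP replicates 1 and 2, and 2.63% in the input) stayed out of the tests.

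Exonic reads per gene and tRNA reads, per gene, anticodon or amino acid, were tested with edgeR 4.0.16 in R 4.3.3 (glmQLFit, glmQLFTest, TMM), for rows that reached 10 reads in 2 or more of the 3 libraries. Calls needed an adjusted p (Benjamini-Hochberg) below 0.05. The share test used tRNA anticodons alone, with all tRNA reads as library size. Each standard error (SE) is the absolute log2 fold divided by the square root of the F statistic of the edgeR test. The spread came from the 2 IP libraries, which leave 1 residual degree of freedom. In the share test the prior degrees of freedom were infinite, so the spread was pooled over all tested anticodons. With TMM over tRNA rows they were 5.77, and the edgeR Benjamini-Hochberg adjusted p of SeC-TCA was 0.00332. It is assumed that the single input varies as they do. The gene fit, and no other, was checked on simulated data, drawn with 1 common dispersion for all rows. There 9.17% of 2-fold and 77.5% of 4-fold changes were recovered, with 6 false calls. The real gene fit called 0 of 10700 rows, so the simulation does not show how well it detects changes in these data. DESeq2 1.42.0, other scalings and other read filters were alternatives. Features with 0 input reads were set against a floor of 3 reads. Shares have exact 95% intervals.

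Named were every anticodon, its gene with most reads, the 5 tested members at each end of the order by log2 fold, up to 6 called genes acting on these tRNAs (the gene fit called none), and members with significant peaks. Other copies of the same isodecoder, tRNA-Leu-CAA-4-1, tRNA-Ser-CGA-3-1, the 8 acting genes called in the anticodon fit, the synthetases and SEPSECS were named after their values were seen. The members and lists were chosen with earlier results of these data known.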

Additional observations from a re-analysis of the deposited data

How the results depend on the processing

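No paired analysis was possible because the input has no replicate number. Leaving out an IP library leaves no residual degrees of freedom, so it gives values with no calls. The members' share of tRNA reads relative to the input was 0.737 without IP replicate 1 and 0.509 without IP replicate 2, against a mean of 0.623. Calls relative to tRNA reads kept within 1.5 times their number under each alternative run. Calls among all genes did not, apart from those of the amino acid sums. There 2 higher became 3 with library size alone and with intronic rows, as Ser was added. Of all 10415 rows of that fit 6989 and 6109 were higher in these 2 runs. Members called gene by gene (0 higher and 0 lower) became 24 and 5 with library size alone, 6 and 3 with DESeq2, 23 and 8 with intronic rows added before TMM, 17 and 16 with at least 1 read in all, 7 and 5 with at least 30 reads in 2 libraries, and 6 and 17 with tRNA genes alone. Of all rows tested with library size alone 64.8% were higher and 1.7% lower, with intronic rows 56.8% and 2.15%, with at least 1 read 4.53% and 3.45%, and with at least 30 reads 10.9% and 8.4%. Anticodons of the members (4 higher and 2 lower) became 7 and 1 with library size alone and with intronic rows. With DESeq2 they became 2 and 1. Of all rows of the anticodon fit 67% were higher and 1.37% lower with library size alone, and 58.4% and 1.73% with intronic rows. With DESeq2 it was 8.11% and 2.79% of rows with an adjusted p. With at least 30 reads 0 anticodons of the members were lower, beside 10% of all rows, and Ser-ACT was no longer tested. Genes acting on these tRNAs (0 and 0) became 27 higher with library size alone, 23 higher and 1 lower with intronic rows, 1 lower with DESeq2, 4 and 2 with at least 1 read, 2 and 2 with at least 30 reads, and 5 and 3 with anticodon rows. The cause was not tested.

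Log2 folds that turned from below to above 0 with library size alone were 0.0047 for tRNA-Leu-CAA-2-1, 0.00034 for tRNA-Ser-AGA-2-4, 0.055 for tRNA-Leu-AAG-2-3, 0.062 for tRNA-Ser-GCT-5-1, 0.24 for tRNA-Leu-CAA-1-2, 0.24 for tRNA-Leu-AAG-2-4, 0.41 for tRNA-Ser-GCT-4-3, 0.51 for tRNA-Leu-TAA-3-1, 1.08 for tRNA-Leu-TAG-2-1, 1.13 for tRNA-Leu-AAG-2-2, 1.22 for tRNA-Ser-AGA-4-1, 0.32 for Leu-AAG, 0.28 for Leu-CAA, 0.55 for Leu-CAG, 0.27 for Leu, 0.23 for BRF1 and 0.15 for TSEN15. With intronic rows they were 0.039 for tRNA-Leu-CAA-1-2, 0.041 for tRNA-Leu-AAG-2-4, 0.21 for tRNA-Ser-GCT-4-3, 0.31 for tRNA-Leu-TAA-3-1, 0.87 for tRNA-Leu-TAG-2-1, 0.93 for tRNA-Leu-AAG-2-2, 1.02 for tRNA-Ser-AGA-4-1, 0.13 for Leu-AAG, 0.095 for Leu-CAA, 0.36 for Leu-CAG, 0.082 for Leu and 0.031 for BRF1. With DESeq2 it was 0.20 for tRNA-Ser-AGA-4-1. The median of all rows moved by a like amount under the first pair of scalings. Depth limits the members with few input reads, above all SeC-TCA (20) and Sup-TTA (0).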
